A study of Mus musculus with 39 samples.

Results

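Scraped mucosa of the mouse proximal small intestine carries a variable amount of muscle RNA, and 24 of the 39 libraries of a diet study were set apart here by how much of it they held. In each diet the 13 libraries were ranked by Actg2, the enteric smooth muscle gamma actin, in CPM, its counts scaled to a common total of all gene counts. The libraries were thus chosen by the measured level of Actg2. The 4 highest of each diet form the 12 muscle-rich libraries and the 4 lowest the 12 muscle-poor libraries. The other 15 libraries, 5 per diet, belong to neither class and are called middle libraries. The classes are therefore a measured property of the libraries and not a treatment. Every test below asks whether another gene goes with Actg2 between libraries of the same diet.

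All mice were female C57BL/6JRccHsd, weaned at 21 days of age, fed for 3 weeks and killed in the fed state at 42 days. The galactose diet supplied 16% of energy as galactose and 16% as glucose, the lactose diet 32% as lactose, and the glucose diet 32% as glucose. The other shares given were the same in all groups, with 32% of energy as starch, 3% as fructose, 20% as protein and 20% as fat. As given, these shares and the sugars above together exceed the whole of the energy. The first 2 cm of the duodenum had been removed, and the opened and washed gut was scraped to collect mainly enterocytes. Each library came from 1 mouse, and libraries are named by diet and by a number given in order of deposit.

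The intestinal wall holds an epithelium on a lamina propria, a thin muscularis mucosae, a submucosa and 2 outer muscle layers with the enteric nervous system between them. Smooth muscle contracts when myosin, phosphorylated on its regulatory light chain, pulls on actin filaments that intermediate filaments and dense bodies anchor to each other and to the membrane. Thin strands of smooth muscle also run up the core of each villus. A scraping takes the epithelium with some lamina propria, and deeper layers only where the blade reaches them. In bulk RNA a larger number of muscle cells and more muscle RNA per cell cannot be told apart.

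Actg2 chose the classes, so its values are a description without a test. In the galactose diet it measured 94.3, 38.4, 28.5 and 25.4 CPM in the muscle-rich libraries 1, 4, 2 and 11, against 14.7, 13.4, 13.1 and 11.3 CPM in the muscle-poor libraries 12, 3, 9 and 8. In the lactose diet the muscle-rich libraries 6, 7, 11 and 1 had 21.2, 13.8, 13.0 and 11.5 CPM, against 8.47, 7.16, 6.71 and 6.07 CPM in the muscle-poor libraries 4, 9, 13 and 8. In the glucose diet the muscle-rich libraries 9, 4, 6 and 1 had 29.9, 25.5, 24.8 and 17.9 CPM, against 13.1, 11.3, 8.40 and 5.66 CPM in the muscle-poor libraries 8, 3, 5 and 12. Galactose 1 stands far above all other libraries, and the lactose classes lie close together and low. Most muscle-rich lactose libraries fall within the range of the muscle-poor galactose libraries. The mean was 28.7 ± 22.1 CPM in muscle-rich and 9.94 ± 3.21 CPM in muscle-poor libraries (SD, n = 12 each), a ratio of 3.56 in the galactose, 2.10 in the lactose and 2.55 in the glucose diet. Just outside the classes, the fifth and ninth libraries had 23.0 and 14.9 CPM with galactose, 9.92 and 8.55 CPM with lactose and 17.3 and 13.6 CPM with glucose, so no gap marks the class limits.

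**Figure D1:**
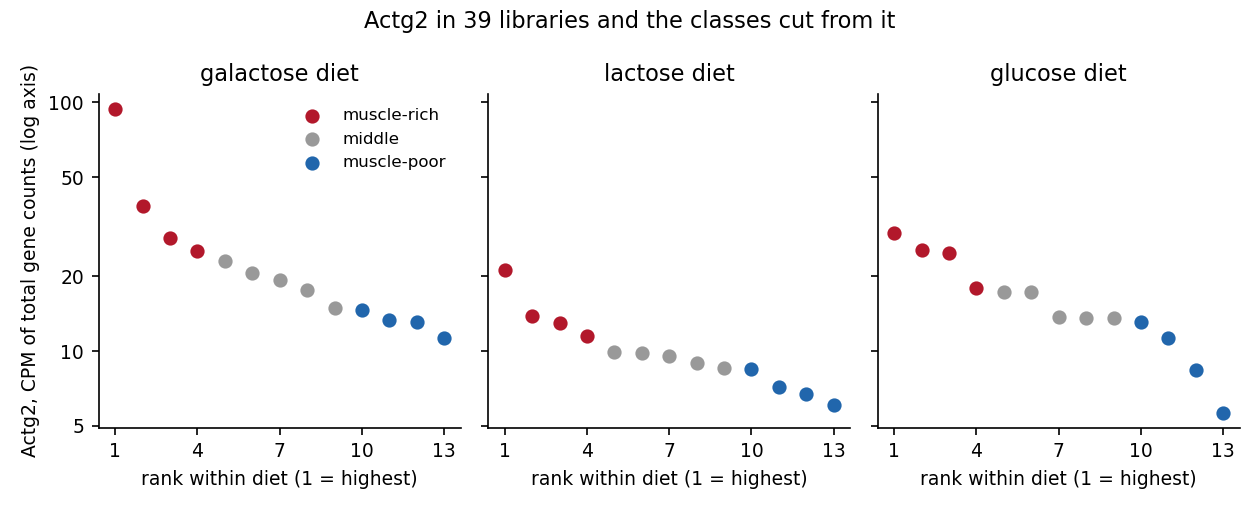
Actg2 in every library, in CPM of all gene counts on a log axis, against the rank of the library within its diet. Each point is 1 library. Muscle-rich libraries are the 4 at the left of each panel and muscle-poor libraries the 4 at the right; only galactose 1 stands apart, at 94.3 CPM.

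The libraries held 19685385 to 21350610 gene counts, and none of 9 library measures passed a two-sided permutation test of the classes within diets (lowest adjusted p = 0.538). The measures were total counts, 4 shares of unassigned reads, the share of the 10 largest genes, the mitochondrial share, the scaling factor and the title number. Title numbers run from 1 to 18 and from 49 to 69, and 8 of the 12 muscle-rich libraries but 4 of the 12 muscle-poor libraries came from the first run. The labels do not call these runs batches, and they are carried through the results below. Within the runs the title numbers form 13 consecutive triplets with 1 mouse of each diet. Of the 12 triplets that hold a library of either class, 5 held muscle-rich and no muscle-poor libraries, 5 muscle-poor and no muscle-rich libraries, and 2 held both. One muscle-rich library, galactose 4, held pancreatic transcripts. Ifit3, an interferon-induced gene, was above 100 CPM in 1 of 12 muscle-rich libraries (glucose 9), in 5 of 12 muscle-poor libraries (galactose 3, 8 and 9, lactose 9, glucose 8) and in 1 of 15 middle libraries. These 7 libraries fall in 3 of the triplets. The part of these differences in the results was not tested beyond the fits without those libraries.

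With diet as a covariate, edgeR's quasi-likelihood test with Benjamini-Hochberg adjustment called 105 of 14657 genes higher in muscle-rich libraries (0.716%) and 3 lower (0.0205%), 108 in all (0.737%). A difference of over 2-fold was reached by 51 higher and 2 lower genes, and the median log2 difference of all tested genes was 0.01. At an unadjusted p under 0.05 there were 1772 genes. Single libraries moved these counts, with 62 higher genes without galactose 8 and 31 lower genes without glucose 9. Without galactose 1 and galactose 4, the libraries richest in Actg2, 51 genes were higher and 3 lower. In 15 genes (0.102% of those tested) all 4 muscle-rich lay above all 4 muscle-poor libraries in each of the 3 diets. Those were Gsn, Myl9, Acta2, Sh3bgr, Aspn, Hspb8, Myh11, Des, Rgs5, Pdlim3, Jph2, Psd, Marveld1, Flna and Atp2b4. They are given by name because the count of diets picked them, after their values were seen. No gene was lower without overlap in all 3 diets.

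**Figure D2:**
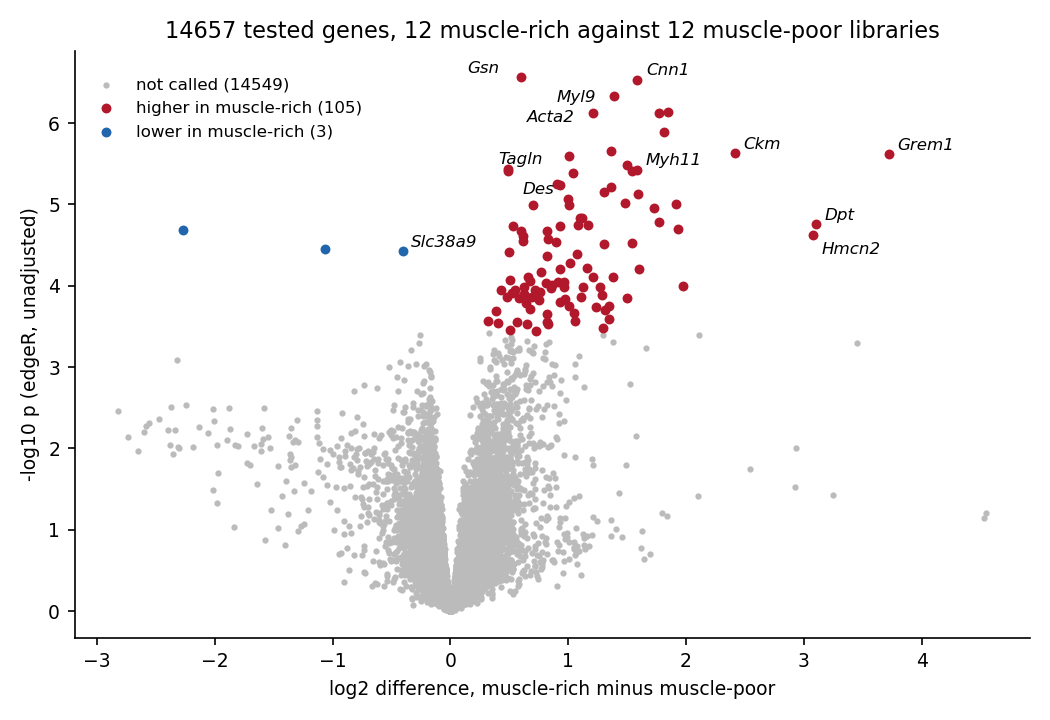
Each point is 1 of 14657 tested genes, with the log2 difference between 12 muscle-rich and 12 muscle-poor libraries on the horizontal axis and -log10 of the unadjusted edgeR p on the vertical axis. Red points are the 105 genes higher in muscle-rich libraries, blue points the 3 genes lower and grey points the genes that did not pass; red points outnumber blue ones at every height above the threshold.

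Of the 105 higher genes 13 were in the list of contractile genes of smooth muscle. Of 27 tested genes of the contractile list 13 rose in muscle-rich libraries, none fell and 14 did not pass, against 0.716% and 0.0205% of all genes. Their median log2 difference was 0.62, against 0.01 for all genes, and 26 of 27 were above 0. DESeq2 called 16 higher and none lower in the same list, against 177 higher (1.21%) and 42 lower (0.287%) of the 14625 genes it tested. The list was written with earlier results of these libraries known.

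Acta2, the alpha actin of smooth muscle, had 191, 93.7, 58.5 and 47.5 CPM in muscle-rich galactose libraries, against 36.0, 32.1, 31.3 and 27.9 CPM in muscle-poor ones (CPM from here on are scaled with TMM factors). With lactose the 4 muscle-rich libraries had 47.4, 36.4, 34.7 and 26.2 CPM, against 22.2, 21.5, 17.9 and 17.3 CPM in muscle-poor libraries. With glucose they had 63.8, 57.0, 47.1 and 45.1 CPM, against 33.9, 25.3, 21.1 and 16.4 CPM in muscle-poor libraries. The classes did not overlap in any diet, although the lowest muscle-rich library of the lactose diet lay below several muscle-poor libraries of the other diets. Acta2 averaged 62.4 ± 44.0 CPM in muscle-rich and 25.2 ± 6.87 CPM in muscle-poor libraries (SD, n = 12 each), 2.32-fold (log2 1.21, SE 0.18, edgeR adjusted p = 0.00186).

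Myh11, the heavy chain of smooth muscle myosin, had 220, 67.7, 42.1 and 33.4 CPM in muscle-rich galactose libraries, against 27.3, 22.6, 20.9 and 13.7 CPM in muscle-poor ones. With lactose the values were 44.4, 22.2, 20.7 and 18.1 CPM in muscle-rich libraries, against 13.6, 10.7, 9.95 and 8.86 CPM in muscle-poor libraries. With glucose they were 61.1, 37.0, 29.6 and 28.6 CPM in muscle-rich libraries, against 20.1, 16.5, 15.7 and 9.43 CPM in muscle-poor libraries. Galactose 1 alone lifted the muscle-rich mean to 52.1 ± 55.2 CPM, against 15.8 ± 5.89 CPM in muscle-poor libraries (log2 1.58, SE 0.26, edgeR adjusted p = 0.00353). Without galactose 1 and galactose 4 the log2 difference was 1.20 for Myh11 and 0.94 for Acta2, and edgeR still called both (adjusted p = 0.00247 and 5.06e-04).

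Cnn1, calponin, which damps the myosin motor, ranged from 3.63 over a median of 11.8 to 46.2 CPM in muscle-rich libraries, against 2.64, 4.53 and 6.18 CPM in muscle-poor libraries (log2 1.59, SE 0.22, edgeR adjusted p = 0.00186). Every muscle-rich library lay above the muscle-poor mean of its own diet, and only the lactose classes overlapped. Myl9, the regulatory light chain, had 13.2, 27.7 and 123 CPM as lowest, median and highest muscle-rich values, against 7.90, 12.0 and 19.2 CPM in muscle-poor libraries (log2 1.39, edgeR adjusted p = 0.00186). Tagln, transgelin, an actin-binding marker of smooth muscle, had 15.8, 32.9 and 100 CPM in muscle-rich libraries, against 11.3, 17.7 and 25.9 CPM in muscle-poor libraries (log2 1.01). Des, the muscle intermediate filament desmin, had 18.0, 32.2 and 113 CPM in muscle-rich libraries, against 9.77, 17.8 and 29.2 CPM in muscle-poor libraries (log2 1.04). Tpm2, beta tropomyosin, had 7.11, 17.0 and 79.2 CPM in muscle-rich libraries, against 4.20, 7.44 and 10.4 CPM in muscle-poor libraries (log2 1.50). The remaining called members were the intermediate filament protein Synm (log2 1.60), the actin nucleator Lmod1 (1.08), Pdlim3 (0.93) and Flna (0.82), which crosslink or bind actin structures, the phosphatase subunit Ppp1r12b (0.68) and Csrp1 (0.60).

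Among the 14 members that did not pass are genes that many cell types use. Mylk, the kinase of the regulatory light chain, had 172, 231 and 403 CPM as lowest, median and highest muscle-rich values, against 147, 209 and 296 CPM in muscle-poor libraries (log2 0.15, edgeR adjusted p = 0.629), and the classes overlapped in every diet. Smtn, smoothelin, had 10.5, 16.3 and 37.7 CPM in muscle-rich libraries, against 9.84, 11.5 and 14.6 CPM in muscle-poor libraries (log2 0.52, adjusted p = 0.059). Synpo2, a Z-disc and dense body protein, had a log2 difference of 0.62 (adjusted p = 0.102). The summed level of the whole list, which does not hold Actg2, ranged from 1884 to 4173 CPM of total counts in muscle-rich libraries and from 1764 to 2406 CPM in muscle-poor libraries. The sums overlapped within every diet. Medians in muscle-rich and muscle-poor libraries were 2442 and 2200 CPM with galactose, 2118 and 2035 CPM with lactose and 2460 and 2106 CPM with glucose. The muscle-rich libraries lactose 1 (1884 CPM) and glucose 6 (1974 CPM) lay below the muscle-poor median of their diet, and the other muscle-rich libraries above it.

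**Figure D3:**
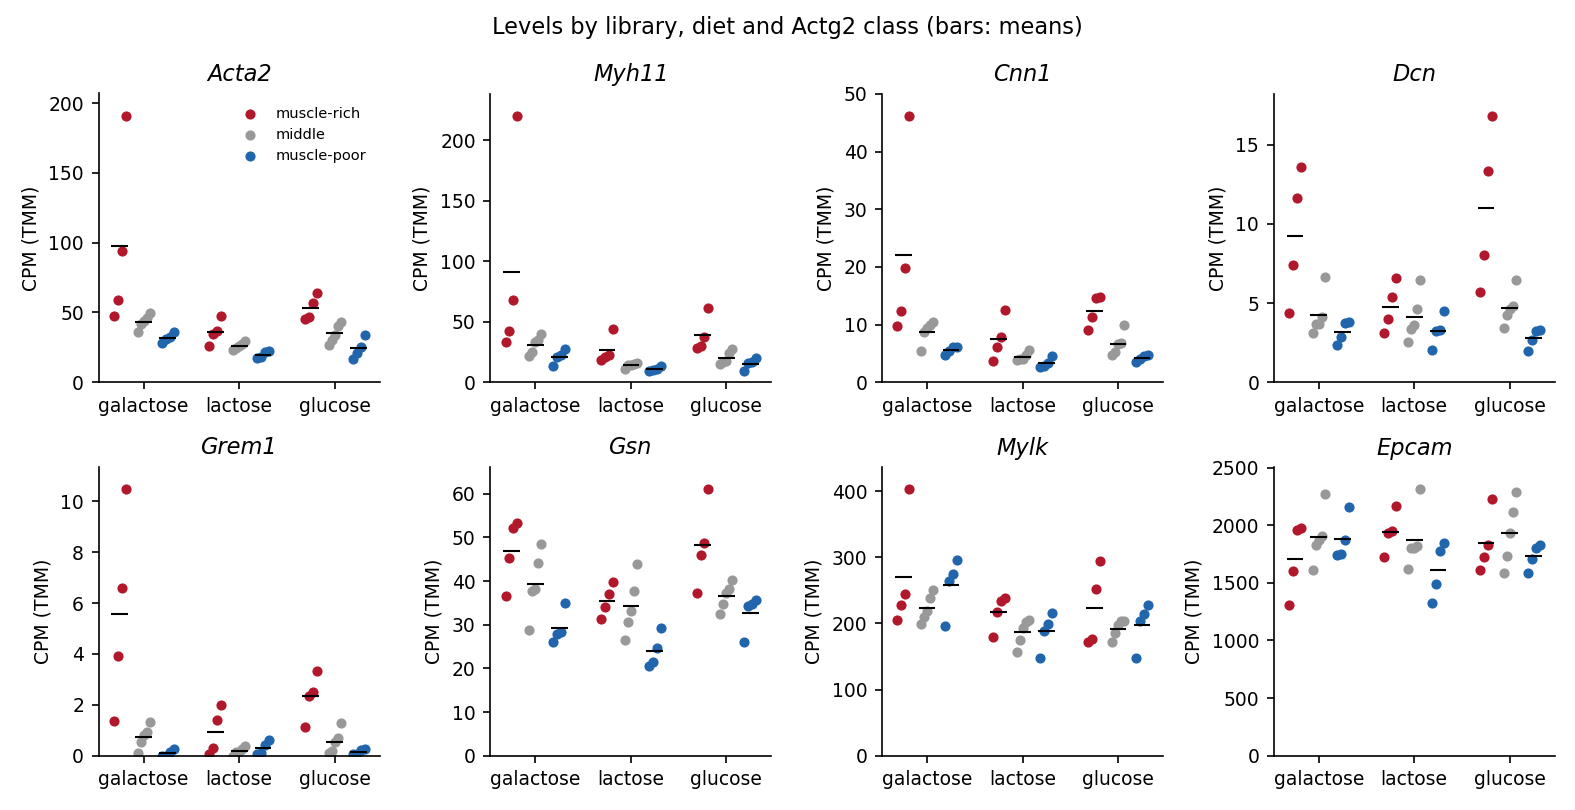
Levels of 8 genes in all 39 libraries, in CPM with TMM factors, by diet and class; points are libraries and black bars are means of the class. Acta2 and Myh11 do not overlap between muscle-rich (red) and muscle-poor (blue) libraries of a diet, Grem1 is near 0 in muscle-poor libraries, and Mylk and Epcam overlap throughout.

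Of 38 tested genes of the list of smooth muscle regulation and signalling 8 rose, none fell and 30 did not pass, against 0.716% and 0.0205% of all genes. The median log2 difference of the list was 0.24, against 0.01 for all genes. DESeq2 called 9 higher and 1 lower, against 1.21% and 0.287% of all genes it tested. Cavin1, a coat protein of caveolae, had 13.9, 14.6 and 23.6 CPM as lowest, median and highest muscle-rich values, against 7.99, 10.9 and 15.0 CPM in muscle-poor libraries (log2 0.49, SE 0.08, edgeR adjusted p = 0.00353). Its partner Cavin2 had 8.51 ± 1.06 CPM in muscle-rich and 6.08 ± 0.91 CPM in muscle-poor libraries (log2 0.49). Rgs5, which shortens G protein signalling in mural cells of vessels, had 34.8, 40.8 and 130 CPM in muscle-rich libraries, against 20.3, 24.9 and 36.1 CPM in muscle-poor libraries (log2 0.90), with no overlap within any diet. Pgm5, a phosphoglucomutase relative that sits at adherens junctions of muscle, differed by a log2 of 1.73. Cav1, Atp2b4, Ppp1r14a and the calcium channel Cacna1c were also called, at 0.43, 0.93, 1.12 and 1.05. Called genes outside the lists, named here after their values were seen, include Jph2, which couples the plasma membrane to the sarcoplasmic reticulum (log2 1.30), the calcium-activated potassium channel Kcnn3 (1.59), the filamin Flnc (1.16) and the small heat shock proteins Hspb8 (1.36) and Cryab (1.32). Dmpk (1.54) and its neighbour Six5 (0.96) were both called. The labels give no strand setting, so reads of overlapping neighbours cannot be told apart.

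Skeletal muscle was checked as another source of muscle RNA. Only 4 of its 14 list genes passed the filter on low counts. Ckm, the muscle creatine kinase, and Des were the 2 that rose, against 0.716% of all tested genes. Ckm had 0.098, 0.794 and 4.39 CPM as lowest, median and highest muscle-rich values, against 0.096, 0.169 and 0.547 CPM in muscle-poor libraries (log2 2.42, edgeR adjusted p = 0.00335). The skeletal actin Acta1 had 9.82 ± 10.3 CPM in muscle-rich and 16.2 ± 22.3 CPM in muscle-poor libraries (log2 -0.52, edgeR adjusted p = 0.572). The summed list had medians of 43.9 CPM of total counts in muscle-rich and 31.5 CPM in muscle-poor libraries. With lactose the sums did not overlap, at 21.0 to 37.0 CPM in muscle-rich and 13.1 to 20.6 CPM in muscle-poor libraries, and with galactose and glucose they overlapped. Of all single tested genes 7.16% did not overlap with lactose, in either direction. The part of skeletal muscle in the results was not tested.

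Serum response factor and its cofactors drive many smooth muscle genes through the CArG box in their promoters, and the letters of 4 promoters of genes higher in muscle-rich libraries are shown so that the box can be seen in place. They are the 250 bases before the start site, 5′ to 3′ on the gene's strand, from RefSeq on GRCm38.p6, an earlier build than the GRCm39 of the counts. Capitals mark boxes that are exact or have 1 letter off in the A/T-rich middle. Acta2 lies on the minus strand at chr19:34255374-34255623, Myl9 on the plus strand at chr2:156775214-156775463, Gsn on the plus strand at chr2:35256109-35256358 and Synm on the minus strand at chr7:67759743-67759992.
Acta2: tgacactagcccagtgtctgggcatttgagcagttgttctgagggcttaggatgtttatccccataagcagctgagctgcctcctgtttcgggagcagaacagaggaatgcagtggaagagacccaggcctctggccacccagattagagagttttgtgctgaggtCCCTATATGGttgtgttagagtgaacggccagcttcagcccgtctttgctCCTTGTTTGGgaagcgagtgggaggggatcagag
Myl9: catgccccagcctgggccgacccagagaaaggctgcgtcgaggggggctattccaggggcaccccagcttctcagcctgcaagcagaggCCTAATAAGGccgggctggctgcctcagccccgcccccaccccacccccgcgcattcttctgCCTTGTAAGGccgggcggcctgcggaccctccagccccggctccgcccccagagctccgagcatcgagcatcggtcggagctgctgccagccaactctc
Gsn: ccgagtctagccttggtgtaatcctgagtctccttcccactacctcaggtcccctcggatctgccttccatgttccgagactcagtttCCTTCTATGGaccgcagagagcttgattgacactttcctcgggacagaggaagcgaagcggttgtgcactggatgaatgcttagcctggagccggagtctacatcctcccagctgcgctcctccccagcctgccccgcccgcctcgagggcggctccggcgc
Synm: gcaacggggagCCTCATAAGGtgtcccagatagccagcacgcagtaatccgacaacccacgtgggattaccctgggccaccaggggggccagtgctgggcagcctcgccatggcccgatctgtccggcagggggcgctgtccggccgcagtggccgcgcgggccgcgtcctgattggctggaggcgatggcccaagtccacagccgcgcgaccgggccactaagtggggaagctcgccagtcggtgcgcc

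Myl9 has 1 exact box, and all other marked boxes have 1 letter off. The box reads the same on both strands, so both were covered, and no other motif was searched. Of the 105 higher genes 81 had a promoter in the table. A gene was counted if any of its promoters in the table held the box, so genes with more promoters had more chances. An exact box was in 2 of these 81 (2.47%), against 156 of 10640 tested genes with a promoter (1.47%). With up to 1 letter off it was in 17 of 81 (21.0%), against 1009 of 10640 (9.48%). In the contractile list 3 of 24 genes with a promoter held an exact box (12.5%) and 7 of 24 held one with up to 1 letter off (29.2%). These are descriptions of letters in a short window, and binding was not measured.

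Some genes of fibroblasts and of the elastic and fibrillar matrix rose as well. Fibroblasts make the collagen, elastin and small proteoglycans of the submucosa and of the tissue between muscle bundles. Of 21 tested fibroblast genes 6 rose, none fell and 15 did not pass (median log2 0.33), and DESeq2 called 7. Over all tested genes edgeR called 0.716% higher and DESeq2 1.21%. Of 23 collagen and matrix genes 5 rose, none fell and 18 did not pass (median 0.27), and DESeq2 called 5.

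Gsn, gelsolin, which severs and caps actin filaments, had the smallest p of all tested genes. It measured 53.3, 52.1, 45.2 and 36.6 CPM in muscle-rich galactose libraries, against 34.9, 28.3, 27.9 and 26.1 CPM in muscle-poor ones. With lactose it had 39.7, 37.0, 34.2 and 31.2 CPM in muscle-rich libraries, against 29.2, 24.5, 21.5 and 20.6 CPM in muscle-poor libraries. With glucose it had 61.0, 48.8, 45.9 and 37.2 CPM in muscle-rich libraries, against 35.6, 34.8, 34.2 and 26.1 CPM in muscle-poor libraries. The classes did not overlap in any diet, and the log2 difference of 0.60 (SE 0.08, edgeR adjusted p = 0.00186) did not rest on galactose 1, which lay below 2 others of its class. Smooth muscle also makes gelsolin, so its place in the fibroblast list does not name the cell.

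Grem1, gremlin 1, a secreted inhibitor of bone morphogenetic proteins made by cells of the muscularis mucosae and by fibroblasts around crypts, had the largest fold among called genes. It measured 10.5, 6.60, 3.93 and 1.35 CPM in muscle-rich galactose libraries, against 0.266, 0.145, 0 and 0 CPM in muscle-poor ones. With lactose it had 2.00, 1.39, 0.299 and 0.049 CPM in muscle-rich libraries, against 0.597, 0.405, 0.109 and 0.047 CPM in muscle-poor libraries. With glucose it had 3.34, 2.50, 2.37 and 1.14 CPM in muscle-rich libraries, against 0.244, 0.240, 0.050 and 0.049 CPM in muscle-poor libraries. The classes were apart with galactose and glucose and overlapped with lactose. Grem1 averaged 2.95 ± 2.96 CPM in muscle-rich and 0.179 ± 0.182 CPM in muscle-poor libraries (SD, n = 12 each; log2 3.72, SE 0.60, edgeR adjusted p = 0.00335). At these levels a muscle-poor library held a handful of reads of the gene.

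Dcn, the collagen-binding proteoglycan decorin, had 3.09, 6.97 and 16.8 CPM as lowest, median and highest muscle-rich values, against 1.99, 3.22 and 4.51 CPM in muscle-poor libraries (log2 1.36, edgeR adjusted p = 0.00444). Its highest library was glucose 9, not galactose 1. Dpt, dermatopontin, another decorin-binding protein, had 0.049, 1.03 and 7.79 CPM in muscle-rich libraries, against 0, 0.246 and 0.620 CPM in muscle-poor libraries (log2 3.11, adjusted p = 0.00758). Postn (log2 1.21) and Fbln2 (0.83) were the other called fibroblast genes. Among matrix genes Aspn, asporin, had 0.548, 0.797 and 2.73 CPM in muscle-rich libraries, against 0.050, 0.293 and 0.580 CPM in muscle-poor libraries (log2 1.81, adjusted p = 0.00267). Tnxb, tenascin X, differed by a log2 of 1.54, Eln, elastin, by 1.31, the elastin crosslinker Loxl1 by 0.83 and the latent TGF-beta binding protein Ltbp4 by 0.41. The broad mesenchymal receptors did not pass, with Pdgfra at 25.0 ± 5.01 CPM in muscle-rich and 24.6 ± 5.58 CPM in muscle-poor libraries (log2 0.03, adjusted p = 0.937) and Pdgfrb at a log2 of 0.03 (adjusted p = 0.935). The chief fibrillar collagens Col1a1 (log2 0.39, adjusted p = 0.168) and Col3a1 (0.36, 0.23) also did not pass. Summed fibroblast genes ranged from 737 to 1071 CPM of total counts in muscle-rich libraries and from 633 to 1080 CPM in muscle-poor libraries. With the mean scaled level of the fibroblast list as a further covariate edgeR called no gene, all 108 called genes kept their sign and 75 of them had an unadjusted p under 0.05. That covariate is made from a list that holds 6 of the called genes, Grem1, Gsn, Dcn and Dpt among them.

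Other cell types of the wall were read from their own lists. Over all tested genes edgeR called 0.716% higher and DESeq2 1.21%. An unadjusted p under 0.05 in edgeR was reached by 1772 of 14657 genes. Of 28 enteric neuron genes 9 were tested. Among these 9 only the intermediate filament peripherin, Prph, rose (2.69 ± 1.30 CPM in muscle-rich and 1.20 ± 0.89 CPM in muscle-poor libraries, log2 1.29, edgeR adjusted p = 0.0454), and DESeq2 called 3. The median of the neuron list was 0.31, and its summed level did not overlap between the classes with galactose or glucose and overlapped with lactose. Of all single tested genes 9.03% did not overlap with galactose and 1.58% with glucose, in either direction. Of 7 tested glial genes, from a list of 16, only the membrane protein Gpm6b rose (log2 0.76, adjusted p = 0.023). Of 12 pericyte and vascular smooth muscle genes Rgs5 and the adhesion receptor Mcam (log2 0.51, adjusted p = 0.0484) rose, and DESeq2 called 3. The median of the pericyte list was 0.45, with 11 of 12 above 0 and 8 at an unadjusted p under 0.05. Its summed level was 72.1 to 239 CPM of total counts in muscle-rich and 47.7 to 79.5 CPM in muscle-poor libraries, and the classes did not overlap within any diet. Rgs5 makes up a large part of that sum and also counts in the list of smooth muscle regulation. It is 1 of the 15 single genes (0.102%) without overlap in all 3 diets. No gene of 9 for interstitial cells of Cajal, the pacemakers of gut motility, passed in edgeR, with 3 at an unadjusted p under 0.05 and 1 called by DESeq2. Kit, their growth factor receptor, had 4.86 against 3.60 CPM as medians in muscle-rich and muscle-poor libraries (log2 0.41, adjusted p = 0.157), and the chloride channel Ano1 was at 0.54 (adjusted p = 0.119).

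All 20 blood endothelial genes had positive differences, and none passed in edgeR or DESeq2, with 13 at an unadjusted p under 0.05 (median log2 0.27). Over all genes edgeR called 108 of 14657 (0.737%), with 1772 at an unadjusted p under 0.05. The tight junction gene Cldn5 was at 0.69 (edgeR adjusted p = 0.103) and the receptor Tie1 at 0.29 (0.163). Summed endothelial genes ranged from 353 to 576 CPM of total counts in muscle-rich libraries and from 274 to 468 CPM in muscle-poor libraries. Of 17 basement membrane genes none passed in edgeR, 8 had an unadjusted p under 0.05 and DESeq2 called 2 higher, against 1.21% of all genes it tested. The laminin chains Lama2 (log2 0.81, edgeR adjusted p = 0.0623) and Lamb2 (0.58, 0.0669) came nearest. Of 13 mesothelial genes of the outer surface only 5 were tested, none passing in either tool and none with an unadjusted p under 0.05 (median -0.01). The untested members of that list could not be read.

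No gene of the absorptive epithelium lists passed over all 24 libraries. In edgeR 108 of all 14657 genes passed (0.737%), and 1772 had an unadjusted p under 0.05. The counts in these lists were not tested against those shares. Of 32 absorptive enterocyte genes none passed in edgeR or DESeq2 and 3 had an unadjusted p under 0.05 (median log2 -0.08, range of single genes -0.40 to 0.35). Their summed level had a median of 98554 CPM of total counts in muscle-rich and 98570 CPM in muscle-poor libraries. By diet the median of the single genes was -0.30 with galactose, 0.16 with lactose and -0.06 with glucose. With lactose the sums did not overlap, at 99580 to 111300 CPM in muscle-rich and 89250 to 97770 CPM in muscle-poor libraries. The sums of 16 villus tip genes did not overlap with lactose either, at 27410 to 32200 CPM in muscle-rich and 21950 to 26570 CPM in muscle-poor libraries. In the other diets both sums overlapped. Of single genes 1049 of 14657 (7.16%) did not overlap with lactose, in either direction, and whether these sums go beyond that was not tested. Vil1, which bundles the actin of microvilli, had medians of 3291 and 3355 CPM in muscle-rich and muscle-poor libraries (log2 -0.08, edgeR adjusted p = 0.759), and Epcam, an epithelial adhesion molecule, 1879 and 1762 CPM (0.08, 0.746). The lactase gene Lct was at a log2 of 0.21 (SE 0.16, adjusted p = 0.621), the sucrase-isomaltase gene Sis at -0.11 (SE 0.11, 0.725) and the glucose and galactose carrier Slc5a1 at -0.14 (SE 0.16, 0.758). The largest leanings by p in the list were Treh (log2 -0.26, adjusted p = 0.235) and Mttp (-0.18, 0.287). Of 25 genes of epithelial adhesion none passed in either tool and 1 had an unadjusted p under 0.05 (median -0.04). Their spread was narrow, from a log2 of -0.13 to 0.14.

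Only 3 genes fell in muscle-rich libraries. Igkv16-104, an immunoglobulin light chain segment, had 0.258, 1.10 and 2.94 CPM as lowest, median and highest muscle-rich values, against 1.47, 3.35 and 19.4 CPM in muscle-poor libraries (log2 -2.27, edgeR adjusted p = 0.00776). A single V segment depends on the plasma cell clones of each mouse. Reads without a unique alignment, as near-identical segments can give, were set apart from the gene counts. Slc38a9, a lysosomal amino acid sensor, had 6.61 ± 0.97 CPM in muscle-rich and 8.78 ± 1.74 CPM in muscle-poor libraries (log2 -0.40, adjusted p = 0.0113). Tdrd12, a Tudor domain gene of the germline piRNA pathway, had 0.642 ± 0.143 CPM in muscle-rich and 1.39 ± 0.713 CPM in muscle-poor libraries (log2 -1.06, adjusted p = 0.0107); it is named because only 3 genes fell. In all 3 genes the 12 muscle-rich libraries lay below the muscle-poor mean of their diet.

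Interferon-induced genes had the most negative differences of any list without a single call in edgeR. All 24 tested genes were below 0, with a median log2 difference of -1.97. An unadjusted p under 0.05 was reached by 22 of them, against 1772 of all 14657 genes. DESeq2 called 9 of 23 as lower, against 0.287% of all genes it tested. Mx2, an antiviral GTPase, had 0.820, 1.77 and 15.9 CPM as lowest, median and highest muscle-rich values, against 0.746, 2.41 and 40.8 CPM in muscle-poor libraries (log2 -2.37, SE 0.72, edgeR adjusted p = 0.152). The medians lay close together and only the highest libraries set the classes apart. Gbp6, a guanylate-binding protein, was at -2.25 (adjusted p = 0.151). Without glucose 9, the 1 muscle-rich library with Ifit3 above 100 CPM, 31 genes were lower and 12 of them were in the interferon list. Without all libraries above that level the median of the list was 0.06 and the contractile median 0.60. In that smaller fit no gene passed, with 1308 at an unadjusted p under 0.05, and all 108 called genes kept their sign with an unadjusted p under 0.05. Those 108 had been called in a set that holds the same libraries, so this is no independent test of them.

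Within single diets the contractile median was 0.91 with galactose, 0.53 with lactose and 0.48 with glucose, 4 against 4 libraries each. Without galactose 1 the contractile median over the 3 diets was 0.49, against 0.62 with it. Within a diet edgeR called 30 genes with galactose, all higher (0.205%), and none with lactose or glucose (0% each), with 2709, 1936 and 475 genes at an unadjusted p under 0.05. Those 30 include Acta2, Cnn1, Myl9, Tpm2, Grem1, Rgs5 and Synm. The test of the interaction of diet and class called no gene in edgeR (0%), with 1804 at an unadjusted p under 0.05, and DESeq2 called 33 (0.225%). Synm had a log2 difference of 2.55 with galactose, 0.85 with lactose and 1.38 with glucose, and Dcn 1.53, 0.55 and 1.97. Neither interaction passed.

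The medians of crypt genes differed in sign between diets, although no test of the difference passed for their members in edgeR. The median of 16 Paneth cell genes was 1.93 with galactose, -1.32 with lactose and 1.50 with glucose, and that of 30 cell cycle genes 1.29, -0.97 and 0.68. Ribosomal protein genes had 0.67, -0.37 and 0.11. DESeq2 called the interaction for Cenpe, a mitotic motor (adjusted p = 0.0288), and for the ribosomal protein genes Rps6 and Rpl5 (adjusted p = 0.0438 each), which edgeR did not call (adjusted p = 0.313 each). The summed cell cycle genes did not overlap with lactose, at 168 to 273 CPM of total counts in muscle-rich and 286 to 422 CPM in muscle-poor libraries, and overlapped in the other diets. Of all single tested genes 7.16% did not overlap with lactose, in either direction. Over all 24 libraries no Paneth or ribosomal gene had an unadjusted p under 0.05, 1 cell cycle gene did, and none of the 3 lists had a call in edgeR or DESeq2. Of all 14657 genes 1772 had such a p in edgeR, which called 108 (0.737%). Ang4, an antimicrobial ribonuclease of Paneth cells, had medians of 18.4 CPM in muscle-rich and 15.9 CPM in muscle-poor libraries (log2 0.98, edgeR adjusted p = 0.413). With the cell cycle list as a covariate edgeR called 149 genes higher and 8 lower, and the contractile median was 0.61.

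**Figure D4:**
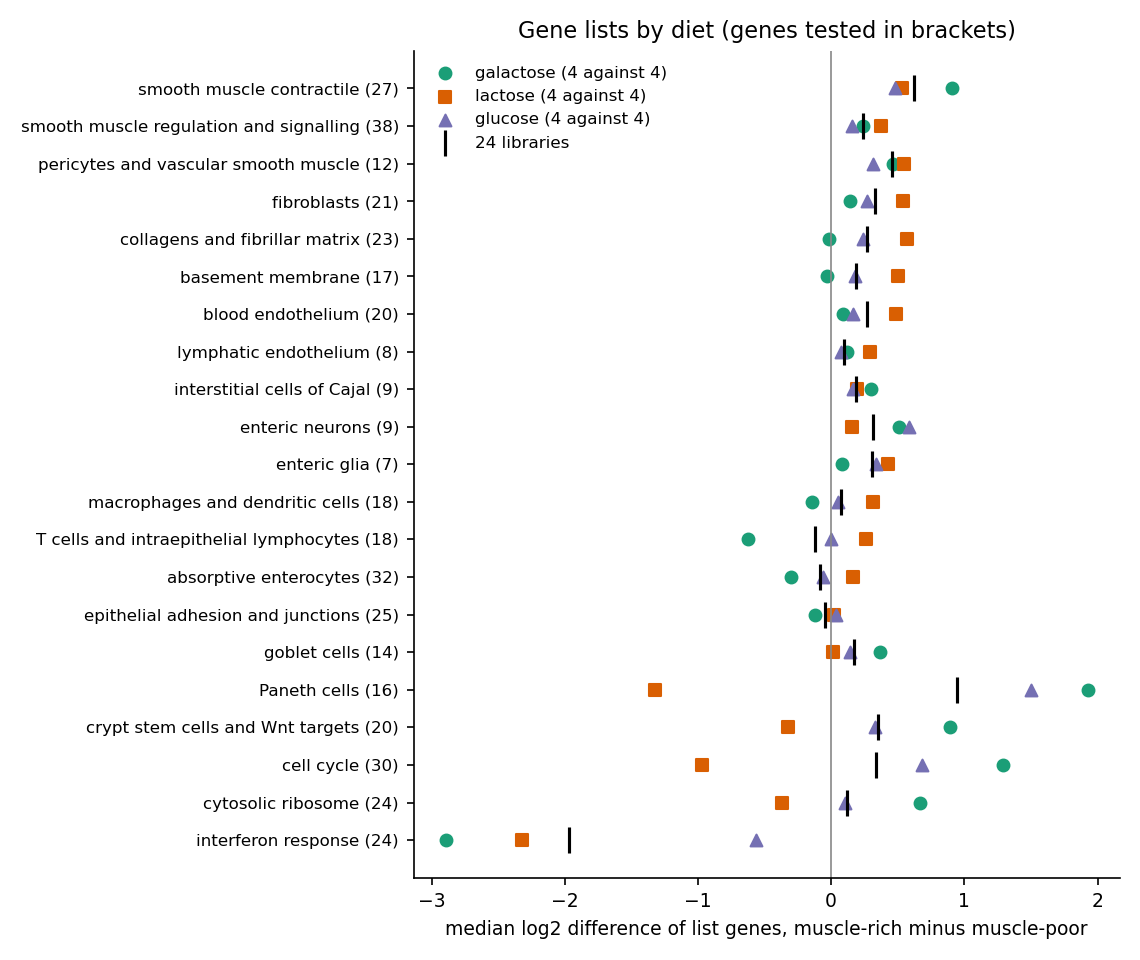
Median log2 difference, muscle-rich minus muscle-poor, over the tested genes of each list, with the number of genes in brackets. Coloured symbols are the 3 diets (4 against 4 libraries) and black ticks all 24 libraries; contractile genes lie above 0 in each diet, while Paneth and cell cycle genes lie below 0 with lactose and above 0 with the other diets.

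The 15 middle libraries, which the classes did not use, were fitted against Actg2 as a continuous measure with diet as a covariate. Of the 105 higher genes 91 had a positive change per doubling of Actg2 (86.7%), against 47.8% of all tested genes, and the median change was 0.52 against -0.02. At an unadjusted p under 0.05 and a positive change there were 18 of the 105 (17.1%), against 136 of 14657 (0.928%). No gene passed the adjusted threshold in edgeR (0%, with 307 at an unadjusted p under 0.05). The range of Actg2 was narrower here, at 14.9 to 23.0 CPM with galactose, 8.55 to 9.92 CPM with lactose and 13.6 to 17.3 CPM with glucose. Each is less than a doubling, so changes per doubling reach beyond the range within any diet. Per doubling, Acta2 changed by a log2 of 0.91 (SE 0.20), Myl9 by 1.14, Myh11 by 1.11, Cnn1 by 1.35, Des by 0.72 and Grem1 by 3.30. Of the 27 contractile genes 18 were positive (median 0.27). Among lists of other cell types in these libraries, all 16 Paneth cell genes were positive (median 2.34), as were 29 of 32 absorptive enterocyte genes (median 0.42) and none of 15 genes of B and plasma cells (median -0.54). No gene of these lists was called, and their part was not tested. Matrix genes did not follow as a set, with Dcn at 0.31 (SE 0.66), Dpt at -0.09, Loxl1 at -0.69 and the heparan sulfatase Sulf1 at -1.42. The median of the matrix list was -0.25.

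**Figure D5:**
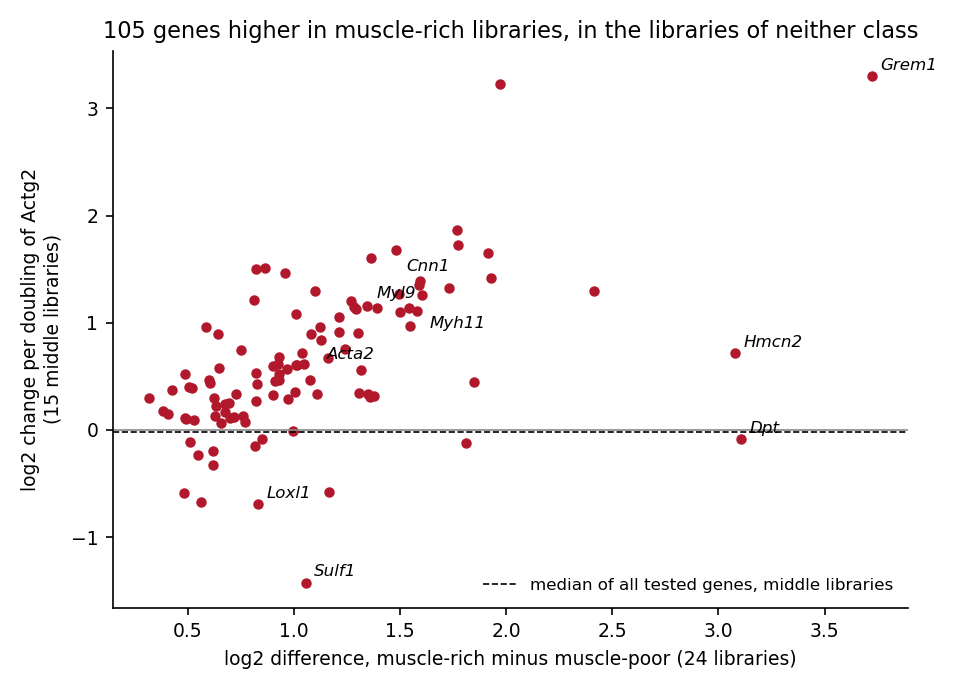
Each point is 1 of the 105 genes higher in muscle-rich libraries. The horizontal axis is its log2 difference between the 24 libraries of the classes and the vertical axis its log2 change per doubling of Actg2 in the 15 middle libraries; 91 points lie above 0, and Dpt, Loxl1 and Sulf1 lie below.

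Other rankings of the same libraries were also fitted. Ranked by Myh11, 11 of 12 muscle-rich and 9 of 12 muscle-poor libraries were the same and none changed to the opposite class, and edgeR called 170 genes higher and 23 lower. Ranked by the contractile list without Actg2, 9 of 12 muscle-rich and 9 of 12 muscle-poor libraries were the same and none changed to the opposite class. That fit left the contractile genes out and tested 14631 genes. It called 98 higher and 1 lower, and of the 95 called genes it held 63 were called again. The counts were smaller once the runs of title numbers were taken into account. With run as a covariate 39 genes were higher (0.266%), among them Acta2, Myh11, Cnn1, Myl9, Gsn, Dcn, Grem1 and Rgs5. Within title numbers 1 to 18 the log2 difference of Acta2 was 1.22 and within 49 to 69 it was 0.89, and for Grem1 it was 4.90 and 2.66. Neither run alone gave a higher gene past the threshold in edgeR, with 605 and 1286 genes at an unadjusted p under 0.05. All 108 genes kept their sign in each run, 93 and 94 of them with an unadjusted p under 0.05. The 108 were called over both runs together, so their signs and p within a run are no independent test. Over all 39 libraries with Actg2 as a continuous measure edgeR called 373 genes with a positive and 19 with a negative change.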

How the data were processed

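RNA of scraped mucosa was sequenced for 39 mice, 13 per diet, on a DNBSEQ instrument, per the labels. Raw counts per gene were deposited as 1 file for each mouse, made with FastQC, STAR and HTSeq on GRCm39, per the submitters' processing notes. Program versions, the strand setting and the annotation release are not given in the sources used here. Each file held 56980 genes, of which 52073 matched a symbol in a name table, and 5 summary lines, which were kept out of totals and tests.

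Libraries were ranked within diets by Actg2 counts over all gene counts, and the 4 highest were compared with the 4 lowest. Genes were filtered with filterByExpr by diet over all 39 libraries, which left 14658 with Actg2 and 14657 tested. Counts were scaled with TMM factors and tested in edgeR 4.0.16 (R 4.3.3) with diet as covariate, two-sided, adjusted by Benjamini and Hochberg over all tested genes, at a threshold of 0.05. Normalised values are CPM with TMM factors, as mean ± SD or lowest, median and highest. Each diet and the interaction of diet and class were read from a second fit of the same 24 libraries. Library measures were permuted within diets with 100000 resamples. The number of libraries on one side is counted against the mean of the other class in the same diet. With 19685385 to 21350610 counts per library, genes under 1 CPM rest on few reads. The p-values set the class difference against the spread between mice within the classes and treat these mice as independent. Of the 12 triplets of title numbers with a library of either class only 2 held both, and fits with the triplet as a block are given below.

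The classes and the 41 gene lists (776 symbols, 637 tested, 132 below the filter, 7 not in the name table) were chosen with earlier results of these data known. Named genes are 8 contractile and 5 epithelial genes set by name, the 8 of smallest p in each direction with mean log2 CPM of at least 1, and up to 4 called members of a list, or the 2 of smallest p where none was called. Some genes are not reported here by name but were kept in every fit and count. Not all names this rule gives are used, and genes outside it are marked where they appear or are further members of a described list. Alternatives were DESeq2 1.42.0, limma 3.58.1 voom with quality weights, other scalings, filters, rankings and class sizes, covariates, and fits without single libraries, runs or diets. A fit without galactose 1 and galactose 4, fits with the triplet of title numbers as a block and the DESeq2 interaction were added after the data were seen. No genome of the files' build was used. Promoter sequences came from a RefSeq table on GRCm38.p6.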

Additional observations from a re-analysis of the deposited data

Results flagged for a closer look

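In 168 groups of 4 libraries, made from 28 measures, 7 had 1 library far from the other 3, and chance alone gives this in about 5% of such groups. Myh11 was 44.4 CPM in the muscle-rich lactose library 6, and the next was 22.2 CPM. Tpm2 was 25.1 CPM in the muscle-rich glucose library 4, and the next was 17.0 CPM. Vil1, the epithelial microvillus gene, was lowest in the muscle-rich glucose library 1 at 2327 CPM, and the next was 3223 CPM. Gsn was lowest in the muscle-poor glucose library 12 at 26.1 CPM, and the next was 34.2 CPM. Smtn was 14.6 CPM in the muscle-poor glucose library 5, and the next was 11.1 CPM. The share of counts in the 10 largest genes was 11.7% in the muscle-poor galactose library 8, against 9.65% in the next. Ambiguous reads were lowest in the muscle-poor lactose library 9 at 1.73%, and the next was 1.77%. Galactose 1, with the highest Actg2 of all, did not stand apart by this measure in its group for any of these genes.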

How the results depend on the processing

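All 108 called genes kept their sign under every alternative in which they were tested, other than the fit on the 15 middle libraries, where 93 did. Apart from the middle libraries, these fits hold libraries in which the 108 genes were called, so a kept sign is no independent support. Counts of genes higher and lower in muscle-rich libraries (105 and 3) were 177 and 42 with DESeq2, 69 and 3 with limma voom, 210 and 6 with no filter beyond 10 summed counts, 91 and 1 with 6 against 6 libraries per diet, 170 and 23 ranked by Myh11, 98 and 1 ranked by the contractile list, and 373 and 19 over all 39 libraries. They were 39 and 1 with run as a covariate, 0 and 1 within title numbers 1 to 18, 149 and 8 with the cell cycle score as covariate, 16 and 1 without the galactose diet, 17 and 0 without the lactose diet and 51 and 3 without galactose 1 and galactose 4. No gene passed in edgeR in the middle libraries, within title numbers 49 to 69, without libraries with Ifit3 above 100 CPM, with the fibroblast score as covariate or without the glucose diet (0 and 0 each), with 307, 1286, 1308, 1785 and 1617 genes at an unadjusted p under 0.05. These fits hold fewer libraries or 1 more covariate. The same is true of the fits with the cell cycle score or run as covariate and without the galactose or lactose diet, which called genes. The cause was not tested. The other alternatives gave 80 to 125 higher genes. With library totals the median of all genes was 0.05 and the contractile median 0.68. Leaving out 1 library at a time gave 62 to 144 higher and 3 to 31 lower genes and a contractile median of 0.49 to 0.67, with 65 to 108 of the called genes still called. The 62 came without galactose 8 and the 31 without glucose 9, and there were 5 to 9 lower genes without glucose 3, 4, 5 or 6, lactose 4 or 6, or galactose 11 or 12. The interaction of diet and class gave 0 genes in edgeR and 33 in DESeq2.

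In the middle libraries the change per doubling of Actg2 took the opposite sign for called genes such as Aspn (-0.12), Dpt (-0.087), Cgnl1 (-0.58), Mpdz (-0.15), Lgals1 (-0.32), Loxl1 (-0.69), Ift122 (-0.19), Tdrd12 (0.68), Ehd2 (-0.12), Enah (-0.088), Iffo2 (-0.23), Atp11a (-0.58), Sulf1 (-1.42) and St3gal3 (-0.67). Among genes that had not passed it did so for Mylk (-0.032), Synpo2 (-0.10), Slc5a1 (0.20), Vil1 (0.19), Lama2 (-0.88), Kit (-0.0092), Treh (0.26) and Mttp (0.13). None of these passed. Genes near 0 also changed sign elsewhere without passing. These were Lct (-0.13) and Epcam (-0.017) within title numbers 1 to 18, and Sis (0.089), Slc5a1 (0.16) and Vil1 (0.036) within 49 to 69. Without the libraries high in Ifit3 they were Vil1 (0.078) and Habp2 (-0.13), and with the fibroblast score Mylk (-0.072), Sis (0.040), Slc5a1 (0.10) and Pnliprp1 (-0.66). Without the galactose diet they were Vil1 (0.049) and Pnliprp1 (-0.24), and without the lactose diet Lct (-0.073) and Epcam (-0.00228). Of the library measures, reads without a feature were at -0.00817 percentage points with 3 against 3 libraries per diet, and without galactose 4 total counts were at 46260 and ambiguous reads at -0.0034 percentage points, none past the threshold.

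The labels give no replicate numbers shared between diets, so the only pairing that could be tried was that of the 13 triplets of consecutive title numbers, which the labels do not name as a pairing. Deviations from the diet means correlated by over 0.1 in 20 of the 39 pairs of libraries within triplets (median 0.108, range -0.256 to 0.681). Each library could match any of the 13 triplets, and 10 of 39 libraries correlated best with their own. The share over 0.1 among pairs from different triplets was not computed. With the triplet as a replicate block edgeR called no gene over the 24 libraries (0 higher and 0 lower, 310 at an unadjusted p under 0.05). All 108 called genes kept their sign, but only 39 of them had an unadjusted p under 0.05. The contractile median was 0.62. Only 2 triplets held both classes, so in the other triplets class and triplet cannot be told apart. Over all 39 libraries with Actg2 as a continuous measure the same block gave 107 higher and 0 lower genes, and 70 of the 108 called genes were called. Under the block, genes that had not passed changed sign, namely Sis (0.14), Slc5a1 (0.090), Vil1 (0.098), Epcam (-0.041) and Mcm7 (-0.20), and over all 39 libraries Epcam (-0.016). Depth limits genes under about 1 CPM, among them Grem1, Dpt and Ckm in muscle-poor libraries. The class sizes allow no statement on single diets beyond large differences.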

Other observations

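No member of the lists of macrophages, T cells or B and plasma cells was called over the 24 libraries in edgeR or DESeq2. Among all 14657 genes edgeR called 108 (0.737%), and 1772 had an unadjusted p under 0.05. Of 18 macrophage and dendritic cell genes 1 had an unadjusted p under 0.05 and the median log2 difference was 0.07. Of 18 T cell genes 1 had an unadjusted p under 0.05, with a median of -0.12 over all diets and -0.62 with galactose, 0.26 with lactose and -0.0029 with glucose. Of 15 genes of B and plasma cells 14 were above 0 (median 0.52), yet their summed level had medians of 1621 CPM of total counts in muscle-rich and 1821 CPM in muscle-poor libraries. Genes of fatty acid oxidation leaned lower in muscle-rich libraries, with 20 of 21 below 0 and a median of -0.12, and none passed in either tool. Among them were the dehydrogenases Acadl (536 ± 104 CPM in muscle-rich and 684 ± 167 CPM in muscle-poor libraries, log2 -0.34, edgeR adjusted p = 0.173) and Ehhadh (log2 -0.33, adjusted p = 0.206). Pancreatic acinar genes had a median of 7.72 with galactose, where galactose 4 held 3087 CPM of Pnliprp1, -0.35 with lactose and 0.19 with glucose. Over all 24 libraries their median was 1.63, and without galactose 4 it was 0.13.

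DESeq2 called an interaction of diet and class for 33 genes that edgeR did not call (edgeR adjusted p = 0.313 for each of those named here). The stearoyl-CoA desaturase Scd1 had a log2 difference of 1.43 with galactose, -3.40 with lactose and 0.32 with glucose. The spermidine synthase Srm had 1.38, -1.03 and 0.82, and the mitotic motor Cenpe 1.03, -1.82 and 0.47. These genes were chosen after their values were seen. Title numbers, interferon-induced genes and crypt genes differ between the same libraries, and their part in these differences was not tested.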
